A study of Mus musculus with 12 samples.

Results

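The 9 genes described here code for the enzymes that carry glucose through the first 5 steps of glycolysis, from hexokinase to triose phosphate isomerase, which follows aldolase. They are Hk1 and Hk2 (hexokinases), Gpi1 (glucose-6-phosphate isomerase), Pfkl, Pfkm and Pfkp (phosphofructokinases), Aldoa and Aldoc (aldolases) and Tpi1 (triose phosphate isomerase). They were chosen by gene symbol, as 9 of the 55372 genes in the TPM table and of the 56748 entries in the scaled count table. Earlier results of these data were known when they were chosen. RNA came from retinas of 2-month-old mice. All carried RiboTag, a floxed ribosomal protein allele that gains a tag after Cre recombination, and i75-Rod-Cre, a rhodopsin-Cre transgene active in rods. The knockout mice were also Abca4-/- and are named Abca4Ko here, and their littermates without that deletion are named control. Abca4 codes for a transporter of rod and cone outer segments that clears retinal derivatives. From each genotype there were 3 libraries of whole retina lysate (retina) and 3 of messages pulled down with the tagged ribosomes (rod TRAP, translating ribosome affinity purification), 12 in all. RNA input to cDNA synthesis was 10 ng for rod TRAP and 5 ng for retina, so input, pull-down and cell type cannot be told apart in a comparison of the fractions. The labels do not say whether the libraries of a group came from separate animals, so p-values measure the spread between these libraries, which may be technical.

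Photoreceptors use glucose at a high rate and turn much of it into lactate even where oxygen is present. Hexokinase commits glucose to the cell by phosphorylating it. Phosphofructokinase makes the step that is regulated most closely, and aldolase splits its product into a pair of three-carbon sugars, which triose phosphate isomerase interconverts. Isoforms of the same step differ by tissue: HK1 is the common form of brain and HK2 that of insulin-responsive and fast-growing tissues, PFKM is the muscle form, PFKL the liver form and PFKP the platelet form, and ALDOA is the muscle form while ALDOC is typical of brain and its astrocytes.

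The libraries had been scaled by the authors to a common total within each fraction, between 17096515 and 17097707 scaled counts for rod TRAP and between 17860761 and 17862326 for retina. Abca4 was at 0.349%, 0.653% and 23.5% of the control mean in the 3 libraries labelled Abca4Ko rod TRAP, and at 0.400%, 0.958% and 21.3% in those labelled Abca4Ko retina. Replicate 3 of Abca4Ko thus stood apart in both fractions. Calls and the range of genotype values of the members, and Abca4 and Pfkfb3 in rod TRAP, are also given without it. Other genotype results include it, apart from ranges with each library left out. The rod label held against its markers, since 20 of 20 rod genes were higher in rod TRAP in each genotype. Of all genes tested, 36.6% were called higher in control and 30.4% in Abca4Ko. Of 12 cone genes, 1 was called higher in each genotype, and 11 in control and 10 in Abca4Ko were called lower. Summed TPM of the cone genes was 611 to 712 in control rod TRAP and 2422 to 2715 in control retina. All 15 Müller glia genes were lower in rod TRAP in each genotype, with a median log2 fold change of −4.31 in control. Of all genes tested, 38.8% were called lower in control and 33.7% in Abca4Ko. Only 13 of the 15 had enough scaled counts to be tested among the rod TRAP libraries alone. The others were tested only through their retina values, so their calls are no open test of direction.

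The promoters of 3 members are shown for the comparison of fractions: Hk2 and Pfkm had the highest and the lowest fold change of all members, and Pfkp is a phosphofructokinase isoform that moved opposite to Pfkm. Each line gives the 250 bases before a RefSeq start on the strand of the gene (GRCm38.p6), with capitals for TAATCC, which the photoreceptor factor CRX binds, and for ACGTG, the core of hypoxia response elements, on either strand.
Hk2, chr6:82774455-82774704, minus strand: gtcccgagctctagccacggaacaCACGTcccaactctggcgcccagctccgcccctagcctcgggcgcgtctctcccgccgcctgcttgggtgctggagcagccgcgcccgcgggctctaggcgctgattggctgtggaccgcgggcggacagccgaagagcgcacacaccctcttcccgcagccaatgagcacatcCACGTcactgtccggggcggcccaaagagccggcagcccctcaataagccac
Pfkp, chr13:6648772-6649021, minus strand: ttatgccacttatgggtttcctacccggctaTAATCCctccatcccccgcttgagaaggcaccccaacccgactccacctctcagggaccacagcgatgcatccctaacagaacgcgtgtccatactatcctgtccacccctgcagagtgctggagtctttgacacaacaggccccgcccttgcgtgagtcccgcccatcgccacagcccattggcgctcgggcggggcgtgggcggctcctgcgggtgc
Pfkm, chr15:98111810-98112059, plus strand: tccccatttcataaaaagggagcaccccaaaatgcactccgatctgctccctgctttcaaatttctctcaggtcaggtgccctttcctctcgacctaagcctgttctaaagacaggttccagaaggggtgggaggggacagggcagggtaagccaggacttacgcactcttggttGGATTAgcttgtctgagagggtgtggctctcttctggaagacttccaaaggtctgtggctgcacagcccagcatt
Pfkm has 4 listed starts, and the one shown is the one whose window holds TAATCC. All 9 members matched the RefSeq table, with 16 windows of 300 bases, 250 before and 50 after a start. TAATCC lay in 3 of these windows, 1 each of Pfkp, Pfkm and Aldoc, and in 7.06% of all 32851 windows. ACGTG lay in 7 of the 16, in windows of 5 of the 9 members (Hk2, Hk1, Pfkm, Aldoa and Aldoc), and in 19.6% of all windows. The Aldoa windows with a match overlap and hold the same site, so the windows are not independent. Windows with TAATCC thus belonged both to a member that was higher in rod TRAP and to members that were lower. A match is only a match of letters.

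The levels of the members spanned more than 2 orders of magnitude in rod TRAP. TPM, a library's share of transcripts corrected for their length, is the scale used for levels. Aldoa was the most abundant member in every group, with 4389 ± 154 TPM in control rod TRAP (SD, n = 3), and Pfkm the least abundant, with 23.3 ± 0.404 TPM. Between them in control rod TRAP came Hk1 at 1486 ± 96.1, Gpi1 at 843 ± 28.2, Tpi1 at 786 ± 55.8, Aldoc at 391 ± 19.1, Hk2 at 380 ± 48.6, Pfkl at 346 ± 22.9 and Pfkp at 222 ± 19.9 TPM. Of these neighbours, Gpi1 and Tpi1, Aldoc and Hk2, and Hk2 and Pfkl overlapped between libraries. In control retina the order was Aldoa, Tpi1, Gpi1, Hk1, Aldoc, Pfkl, Pfkp, Hk2 and Pfkm, where Gpi1 and Hk1 overlapped, as did Pfkp and Hk2. Hk1 thus ranked above Gpi1 and Tpi1 in control rod TRAP, and Tpi1 ranked above both in control retina. Summed over isoforms, phosphofructokinase was the step with the lowest TPM and aldolase that with the highest in 12 of 12 libraries.

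**Figure D1:**
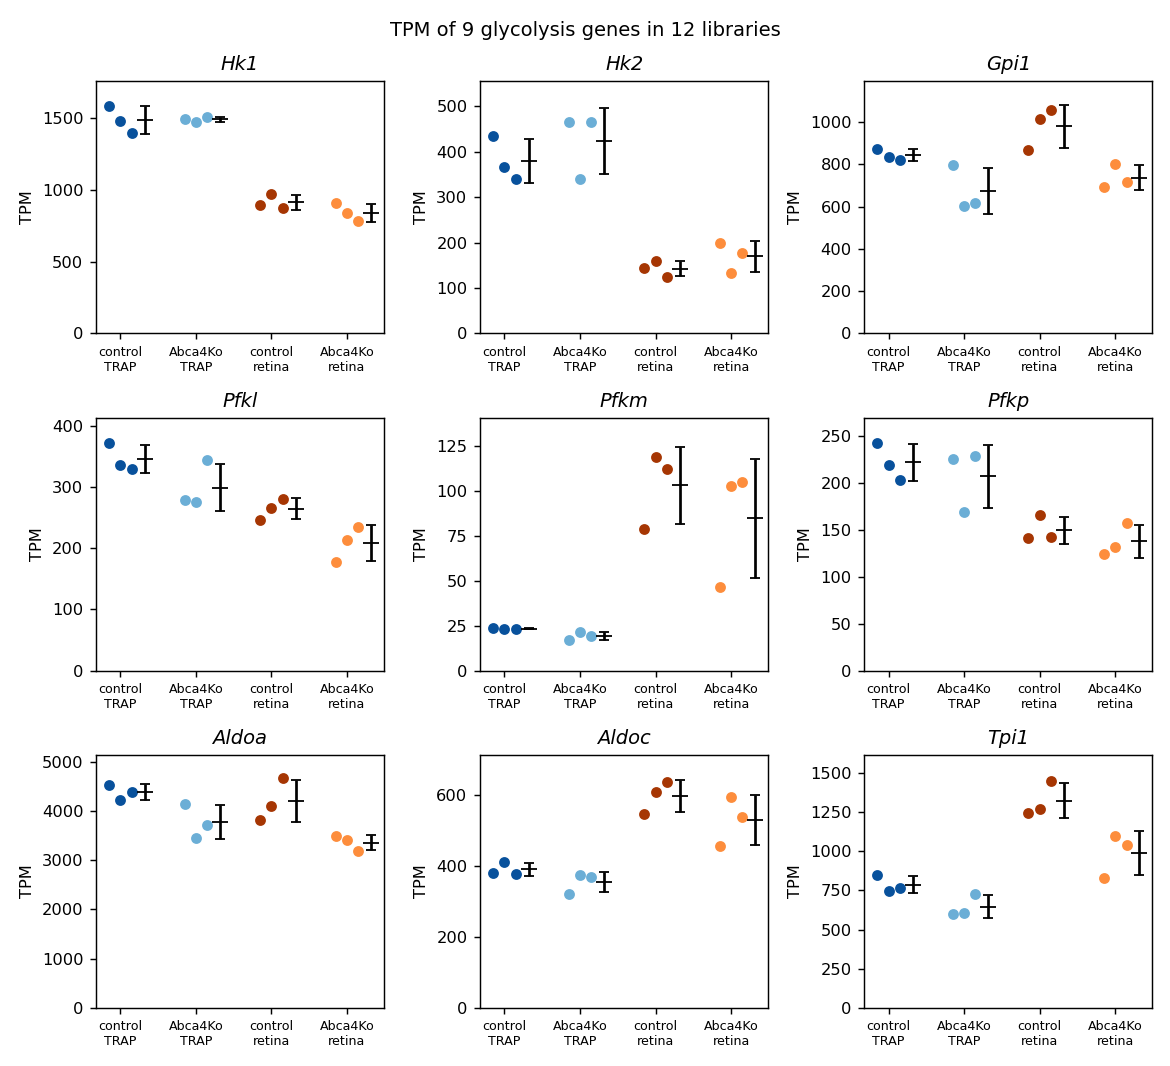
TPM (y axis, linear from 0) of the 9 members in 12 libraries, 1 panel per gene, with groups on the x axis. Points are libraries in the order of their replicate numbers, and the bar beside them is the mean ± SD (n = 3). Hk1 and Hk2 sit higher in both rod TRAP groups than in both retina groups, and Pfkm and Aldoc sit lower.

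To see which isoforms differ between the fractions, the pull-down was set against the lysate separately for control and Abca4Ko. In control, 5 members (Hk1, Hk2, Pfkl, Pfkp and Aldoa) were higher and 3 (Pfkm, Aldoc and Tpi1) were lower in rod TRAP at a limma adjusted p under 0.05, while Gpi1 did not pass. Both shares are to be read against the background, since 36.6% of all genes tested were called higher and 38.8% lower. In Abca4Ko mice, 4 members (Hk1, Hk2, Pfkl and Pfkp) were higher and Pfkm was lower, beside 30.4% and 33.7% of all genes. The median log2 fold change over the members was 0.36 in control and 0.39 in Abca4Ko, beside −0.03 and 0.00 over all genes tested. These log2 fold changes are of CPM, a gene's share of a library's total, from the scaled counts after rescaling by the trimmed mean of M values, which centres the bulk of genes near 0. Under the authors' scaling alone the median of all genes fell to −0.62 in control and −0.49 in Abca4Ko, and the members split into 2 higher and 5 lower in control and 2 higher and 3 lower in Abca4Ko. Hk1 and Hk2 were called higher and Pfkm lower in both genotypes under each of 14 alternatives.

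Both hexokinases were higher in rod TRAP than in retina. Hk1, the main hexokinase of neurons, had 1586, 1479 and 1394 TPM in control rod TRAP and 891, 972 and 872 TPM in control retina. In Abca4Ko it had 1489, 1472 and 1507 TPM in rod TRAP and 905, 835 and 781 TPM in retina, so that no rod TRAP library overlapped with a retina library. Its log2 fold change was 1.00 (SE 0.11, limma adjusted p = 2.83e-06) in control and 1.03 (SE 0.22, limma adjusted p = 0.00164) in Abca4Ko. Hk2, which binds mitochondria and is the hexokinase of highly glycolytic cells, had 434, 367 and 339 TPM in control rod TRAP against 145, 159 and 125 TPM in control retina. In Abca4Ko it had 465, 340 and 466 TPM in rod TRAP against 200, 132 and 177 TPM in retina. The fractions were far apart in both genotypes, and of all members Hk2 had the highest fold change, with log2 values of 1.71 (SE 0.12, limma adjusted p = 4.92e-08) and 1.57 (SE 0.27, limma adjusted p = 0.000379). Under the authors' scaling alone both were still called, Hk1 at 0.36 in control and 0.49 in Abca4Ko, and Hk2 at 1.07 and 1.03. In TPM, mean Hk2 was 2.66 times and mean Hk1 1.63 times as high in control rod TRAP as in control retina.

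The phosphofructokinase isoforms moved in opposite directions. Pfkm had 23.8, 23.1 and 23.1 TPM in control rod TRAP and 78.7, 118.8 and 112.1 TPM in control retina. In Abca4Ko it had 17.0, 21.3 and 19.1 TPM in rod TRAP and 46.3, 102.9 and 104.8 TPM in retina, where replicate 1 was low. All rod TRAP libraries lay below all retina libraries, and the log2 fold change was −1.99 (SE 0.14, limma adjusted p = 5.52e-08) in control and −1.88 (SE 0.19, limma adjusted p = 8.81e-06) in Abca4Ko. Pfkl had 372, 336 and 330 TPM in control rod TRAP and 247, 266 and 281 TPM in control retina, and 278, 275 and 344 against 178, 213 and 235 TPM in Abca4Ko. Its log2 fold change was 0.72 (SE 0.12, limma adjusted p = 0.000148) in control and 0.80 (SE 0.16, limma adjusted p = 0.00120) in Abca4Ko. Pfkp had 243, 220 and 204 TPM in control rod TRAP and 141, 166 and 142 TPM in control retina, and 225, 169 and 229 against 124, 132 and 158 TPM in Abca4Ko. The groups did not overlap, and the log2 fold change was 0.79 (SE 0.11, limma adjusted p = 2.76e-05) in control and 0.69 (SE 0.18, limma adjusted p = 0.00589) in Abca4Ko. Pfkl and Pfkp were not called under the authors' scaling alone, with log2 values of 0.07 and 0.14 in control and 0.26 and 0.15 in Abca4Ko. Without Abca4Ko retina replicate 2, Pfkp was not called in Abca4Ko either (0.56, limma adjusted p = 0.0553).

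The size of the changes of the aldolases and isomerases, and for Aldoa and Gpi1 their direction, depended on the scaling. Aldoa had 4541, 4233 and 4395 TPM in control rod TRAP and 3822, 4111 and 4680 TPM in control retina, and the groups overlapped. Its log2 fold change was 0.36 (SE 0.13, limma adjusted p = 0.0240) in control and 0.39 (SE 0.23, limma adjusted p = 0.157) in Abca4Ko. The call in control was lost on the log2(TPM + 1) scale and without 5 of the 6 libraries in turn (limma adjusted p = 0.0584 to 0.0907). It was also lost without the trend and robust options (limma adjusted p = 0.0631) and with all 12 libraries in 1 fit (limma adjusted p = 0.209). The direction turned under the authors' scaling alone (−0.29, limma adjusted p = 0.0279). Aldoc had 381, 413 and 379 TPM in control rod TRAP and 548, 609 and 637 TPM in control retina. Its libraries did not overlap, and the log2 fold change was −0.31 (SE 0.12, limma adjusted p = 0.0350) in control and −0.30 (SE 0.16, limma adjusted p = 0.120) in Abca4Ko. The call of Aldoc in control was lost without any 1 of the 3 control rod TRAP libraries (limma adjusted p = 0.0689 to 0.111). It was lost without the trend and robust options too (limma adjusted p = 0.0772). Tpi1 had 850, 746 and 763 TPM in control rod TRAP and 1247, 1272 and 1450 TPM in control retina, and its log2 value was −0.43 (SE 0.14, limma adjusted p = 0.0109). In Abca4Ko Tpi1 had 599, 608 and 730 against 830, 1096 and 1039 TPM, again without overlap, and −0.35 (SE 0.16, limma adjusted p = 0.0863). Without control rod TRAP replicate 2 the call of Tpi1 in control was lost (−0.39, limma adjusted p = 0.0523). Under the authors' scaling alone Aldoc and Tpi1 were called lower in both genotypes, at −0.95 and −1.08 in control and at −0.83 and −0.89 in Abca4Ko. On the log2(TPM + 1) scale they were called in both too, at −0.61 and −0.75 in control and at −0.57 and −0.61 in Abca4Ko. Gpi1 had 875, 834 and 821 TPM in control rod TRAP and 866, 1013 and 1059 TPM in control retina. Its log2 fold change of 0.15 (95% interval −0.11 to 0.42) did not pass, and its sign turned on the TPM scale (−0.21) and under the authors' scaling (−0.49).

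**Figure D2:**
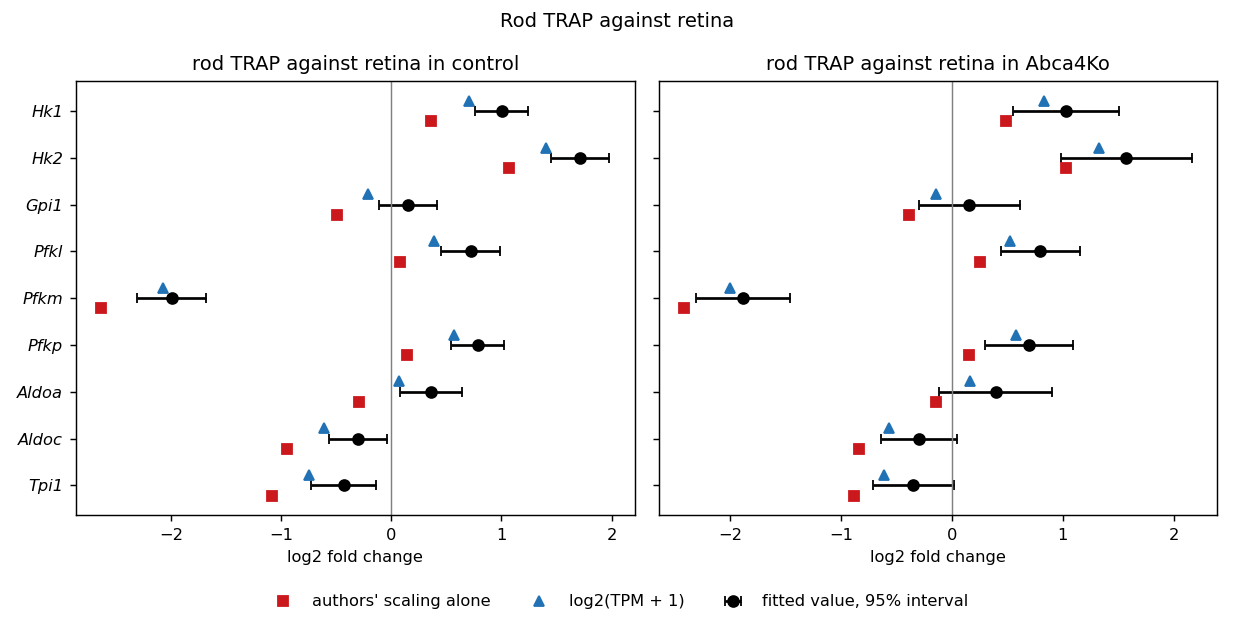
Log2 fold change (x axis) of rod TRAP against retina for the 9 members (y axis), in control (left) and Abca4Ko (right). Black points are fitted values with their 95% intervals, red squares the authors' scaling alone and blue triangles log2(TPM + 1). Hk1 and Hk2 stay right of 0 and Pfkm left of 0 on all 3 scales, while Gpi1 and Aldoa lie on both sides.

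Isoforms of the same step were then compared within each library, where the scaling of the library cancels apart from the pseudocount. Of the summed hexokinase TPM, Hk2 made up 20.3% ± 1.02 in control rod TRAP and 13.5% ± 0.886 in control retina, and 22.1% ± 2.85 and 16.7% ± 2.67 in Abca4Ko (SD, n = 3). Over both genotypes its share was 18.8% to 23.8% in rod TRAP, while in retina it was 12.5% to 18.5%, so the fractions did not overlap but came close. Of the phosphofructokinase TPM in control rod TRAP, Pfkl made up 58.5% ± 0.634, Pfkp 37.5% ± 0.803 and Pfkm 3.95% ± 0.217. In control retina these shares were 51.2% ± 2.56, 29.0% ± 2.10 and 19.8% ± 2.55. The share of Pfkm over both genotypes was 3.23% to 4.58% in rod TRAP, while in retina it was 13.3% to 23.0%. Aldoc made up 8.18% ± 0.615 of aldolase TPM in control rod TRAP and 12.5% ± 0.468 in control retina, with ranges over both genotypes of 7.21% to 9.77% and 11.6% to 14.8%. The shares of Hk1, Pfkm and Aldoc within their steps were thus lower in rod TRAP than in retina, without overlap.

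The log2 ratio of 2 isoforms, each as TPM + 1, was tested over 6 rod TRAP and 6 retina libraries. The test was a two-sided exact permutation test, adjusted over the 5 ratios. It pools the genotypes and takes same-numbered libraries of the fractions as independent, though they correlated. A paired test is given in the last section. The difference between rod TRAP and retina was 0.60 (SE 0.13) for Hk2 to Hk1, 2.49 (SE 0.15) for Pfkl to Pfkm, 2.61 (SE 0.20) for Pfkp to Pfkm and −0.71 (SE 0.10) for Aldoc to Aldoa. Each of these 4 had an exact p = 0.00216, the smallest possible at this size, and an adjusted p = 0.0027. Pfkp to Pfkl differed by 0.12 (SE 0.09, exact permutation p = 0.247), and its libraries spanned −0.70 to −0.30 in rod TRAP, and −0.98 to −0.52 in retina. That difference was −0.019 from the scaled counts, so its sign depended on the scale. Within a genotype 3 libraries against 3 cannot give an exact p under 0.10. The 4 differences that passed had the same sign in each genotype, at 0.70 and 0.49 for Hk2 to Hk1, 2.46 and 2.52 for Pfkl to Pfkm, 2.64 and 2.59 for Pfkp to Pfkm, and −0.68 and −0.73 for Aldoc to Aldoa in control and Abca4Ko.

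**Figure D3:**
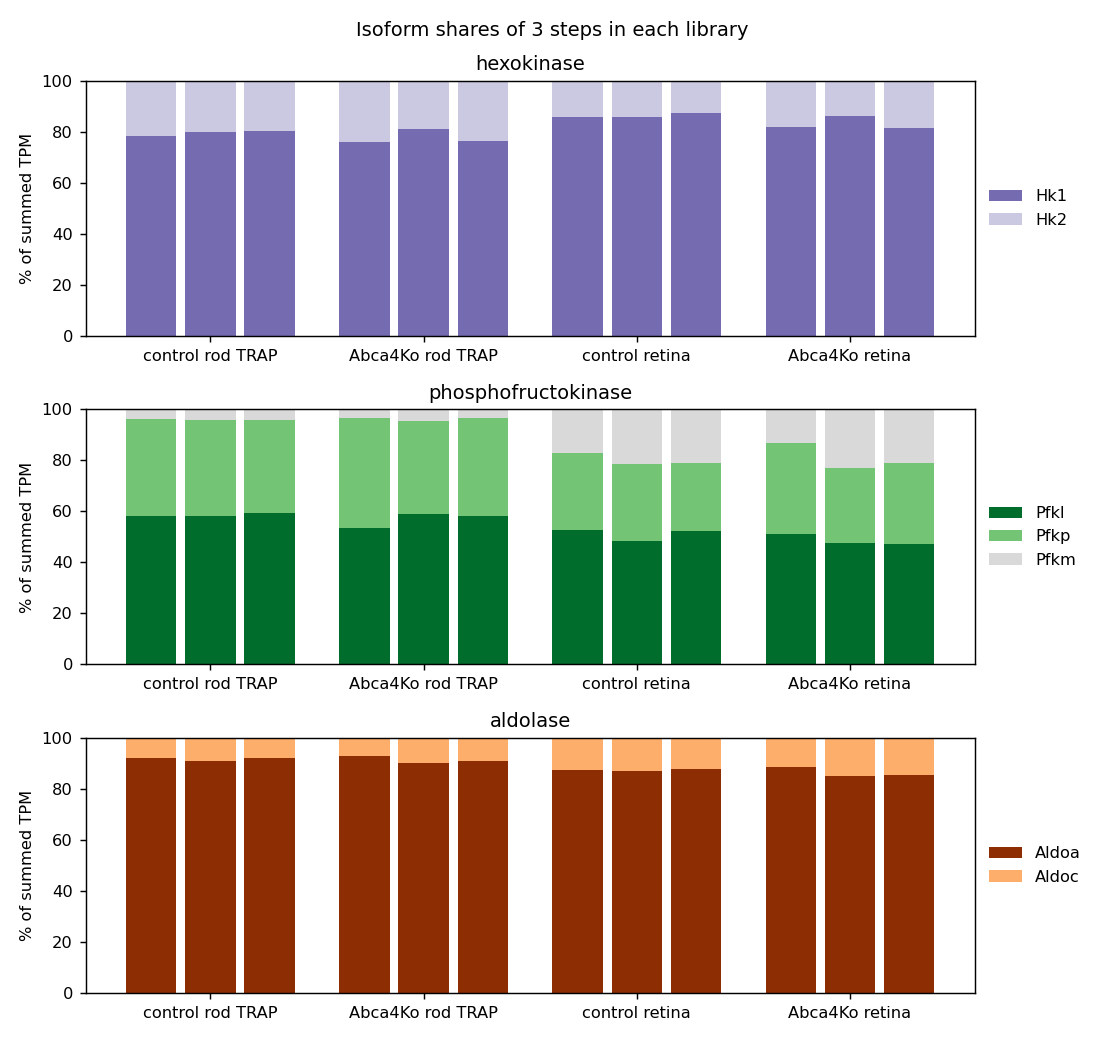
Share of each isoform in the summed TPM of its step (y axis, percent) in each of the 12 libraries, stacked, for hexokinase, phosphofructokinase and aldolase. Bars within a group are replicates 1 to 3. The Pfkm segment spans 3.23% to 4.58% in rod TRAP and 13.3% to 23.0% in retina.

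In retina the messages of rods are mixed with those of other cells, and in bulk RNA fewer cells of a type and less RNA per cell cannot be told apart. Summed over the 15 marker genes, Müller glia stood at 152 to 177 TPM in control rod TRAP and at 4341 to 6763 TPM in control retina. The 14 bipolar cell genes stood at 410 to 436 and 1076 to 1690 TPM, and the 5 astrocyte genes at 1.0 to 1.6 and 46.4 to 63.8 TPM. Of the bipolar genes, 12 were called lower and 2 higher in rod TRAP in each genotype, with a median log2 fold change of −4.26 in control. Of all genes, 38.8% were called lower in control and 33.7% in Abca4Ko. Only 13 of the 14 bipolar genes could be tested among the rod TRAP libraries alone. No Müller glia gene was at 0 in all 3 libraries of either group. The part of these cells in the shares of Pfkm and Aldoc was not tested.

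No member was called between the genotypes. The same fits did not call Abca4, the deleted gene, either. Its log2 fold change was −5.79 (limma adjusted p = 0.415) in rod TRAP and −5.60 (limma adjusted p = 0.400) in retina. Without Abca4Ko replicate 3 it was called in rod TRAP (−7.63, limma adjusted p = 1.68e-06). The lack of a call thus does not show that a gene was unchanged. In rod TRAP 0 of 9 members passed a limma adjusted p of 0.05, where 1.09% of all genes tested did, and 1 member (Gpi1) had an unadjusted p under 0.05. In retina 0 of 9 passed, where 0.106% of all genes did, and Gpi1 again was the member with an unadjusted p under 0.05. Log2 fold changes of Abca4Ko against control lay between −0.33 (Gpi1) and 0.21 (Hk2) in rod TRAP, and in retina between −0.44 (Gpi1) and 0.24 (Hk2). Their medians were −0.11 and −0.29, beside 0.00 and −0.02 over all genes tested.

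Gpi1, Aldoa and Tpi1 had lower TPM in all Abca4Ko libraries than in any control library of the same fraction, though no test passed. Gpi1 had 798, 604 and 617 TPM in Abca4Ko rod TRAP, all below the 875, 834 and 821 of control, and 692, 803 and 717 TPM in Abca4Ko retina, all below the 866, 1013 and 1059 of control. Its log2 fold change was −0.33 (SE 0.14, limma adjusted p = 0.466) in rod TRAP and −0.44 (SE 0.20, limma adjusted p = 0.414) in retina. Aldoa had 4150, 3457 and 3727 TPM in Abca4Ko rod TRAP and 3488, 3410 and 3184 TPM in Abca4Ko retina, in both fractions below the control libraries, and log2 fold changes of −0.14 (SE 0.12, limma adjusted p = 0.755) and −0.29 (SE 0.24, limma adjusted p = 0.587). Tpi1 lay below control in every library of both fractions too, at −0.20 (SE 0.09, limma adjusted p = 0.489) and −0.40 (SE 0.19, limma adjusted p = 0.419). In TPM, 5 of 9 members (Gpi1, Pfkm, Aldoa, Aldoc and Tpi1) lay below control without overlap in rod TRAP, where 8.95% of all genes did. In retina 4 of 9 (Gpi1, Pfkl, Aldoa and Tpi1) did so, where 6.85% of all genes did. The counts depended on the scale. On the log2 CPM values that were tested, only Tpi1 lay below control without overlap in rod TRAP, where 1190 of 13104 genes did. In retina Gpi1, Pfkl and Tpi1 did so on that scale, where 1607 of 16964 genes did. Members share pathway and libraries, and these counts have no test.

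Hexokinases and Pfkp overlapped between the genotypes. Hk1 differed by 0.05 (95% interval −0.17 to 0.27) in rod TRAP and by −0.08 (−0.57 to 0.40) in retina. Hk2 differed by 0.21 (95% interval −0.16 to 0.58) and 0.24 (−0.31 to 0.79), and Pfkp by −0.06 (−0.38 to 0.26) and −0.08 (−0.43 to 0.27). Pfkl and Pfkm stood at −0.14 and −0.11 in rod TRAP and at −0.32 and −0.34 in retina. For the 5 isoform ratios between genotypes the exact permutation test gave p = 0.2 to 0.9 (10 values in all). With 3 libraries against 3 it cannot go below 0.1, so it could not have passed and does not show that the ratios were alike. The lowest of these p-values was for Pfkp to Pfkl in retina, at 0.22 (SE 0.10, exact p = 0.2, adjusted 0.667).

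Single libraries moved these values. Without Abca4Ko rod TRAP replicate 1, whose Gpi1 and Aldoa lay above those of the other Abca4Ko libraries of rod TRAP, Gpi1 (−0.53, limma adjusted p = 3.05e-06) and Aldoa (−0.30, limma adjusted p = 0.00163) were called lower, and the genes called in all rose from 143 to 591. Without control rod TRAP replicates 1, 2 or 3 they fell to 37, 30 and 33. In retina the 18 genes called in all fell to 1 without Abca4Ko retina replicate 1, to 4 without Abca4Ko replicate 2 or control replicate 3, and to 10 without control replicate 1. Without replicate 3 of Abca4Ko, which held the higher Abca4, 0 of 9 members were called in each fraction, with log2 values between −0.25 (Tpi1) and 0.19 (Hk2) in rod TRAP, and in retina between −0.42 (Pfkm) and 0.32 (Hk2). Beside the retina values, 5 of the 7 blood genes were tested and had a median log2 fold change of −0.93 in Abca4Ko. Summed TPM of all 7 was 383 to 603 against 541 to 1235 in control, and Slc4a1 was at 0 in all 3 Abca4Ko libraries. Of the 14 genes of the pigment epithelium 13 were tested, with a median of −0.64. Summed TPM of the 14 was 324 to 796 against 508 to 1109. None of the tested genes of either list was called, beside 0.106% of all genes. In rod TRAP 2 of 12 cone genes were called higher in Abca4Ko (median 0.40, summed TPM 680 to 897 against 611 to 712). Of all genes tested there, 94 of 13104 were called higher. In retina 0 of the 12 cone genes were called, beside 0.106% of all genes, with a median of −0.30. Summed TPM of the cone genes in retina was 1637 to 2370 in Abca4Ko, below the 2422 to 2715 of control without overlap. The part of other cells in the members' values was not tested.

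**Figure D4:**
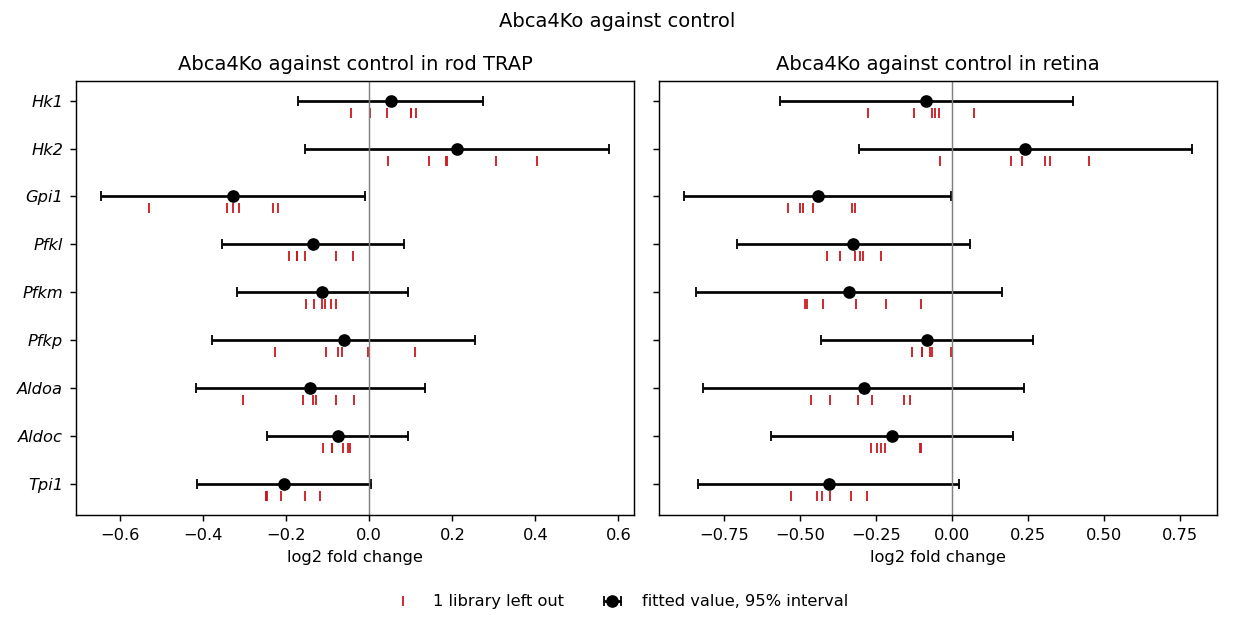
Log2 fold change (x axis) of Abca4Ko against control for the 9 members (y axis) in rod TRAP (left) and retina (right). Black points are fitted values with 95% intervals, and red ticks are the 6 values with 1 library left out. The interval of Gpi1 just misses 0 in both fractions before adjustment, and its lowest tick in rod TRAP, −0.53, is the fit without Abca4Ko replicate 1.

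The interaction of genotype and fraction asks whether the genotypes differ more in rod TRAP than in retina. It was called for 0 of 9 members, where 0.00579% of all genes (1 of 17273) was called. No member had an unadjusted p under 0.05. Its log2 values ran from −0.06 (Hk2) to 0.20 (Pfkm). For Gpi1 it was 0.09 (95% interval −0.43 to 0.60) and for Tpi1 0.17 (−0.26 to 0.61).

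Other genes of the same steps were taken from a list of 13 that hold the rarer hexokinases and aldolase B, the bifunctional enzymes that set the level of fructose-2,6-bisphosphate (an activator of phosphofructokinase), and the opposing phosphatases. Pfkfb3, the bifunctional enzyme with the strongest kinase activity, was lower in Abca4Ko rod TRAP. It was the only 1 of the 7 tested genes of the list to be called there, beside 1.09% of all genes. It had 2.0, 2.3 and 4.0 TPM in Abca4Ko rod TRAP and 6.2, 6.6 and 6.2 TPM in control, without overlap. Its log2 fold change was −1.27 (SE 0.19, limma adjusted p = 0.0120), and −1.49 without Abca4Ko replicate 3 (limma adjusted p = 0.000544). The call was lost on the log2(TPM + 1) scale (−0.998, limma adjusted p = 0.154), without the trend and robust options (limma adjusted p = 0.0616) and without any 1 of the control libraries (limma adjusted p = 0.0703 to 0.114). In retina Pfkfb3 had 5.3, 12.4 and 13.9 TPM in Abca4Ko and 10.8, 17.5 and 12.7 TPM in control, and the groups overlapped (−0.40, SE 0.23, limma adjusted p = 0.468). The interaction for Pfkfb3 was −0.91 (SE 0.32) and was not called (limma adjusted p = 0.407). The genotypes were thus not shown to differ more in rod TRAP. Of the 9 genes of this list tested in retina, 0 were called, beside 0.106% of all genes.

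Between the fractions in control, 4 of the 9 tested genes of this list passed with higher and 4 with lower values in rod TRAP, beside 36.6% and 38.8% of all genes. The 3 largest rises were of Pfkfb2 (2.09, SE 0.18), another bifunctional enzyme, Pfkfb1 (1.40, SE 0.19), the liver form, and Tigar (0.78, SE 0.12), a phosphatase of fructose-2,6-bisphosphate. Pfkfb2 had 240, 234 and 204 TPM in control rod TRAP and 69.7, 84.7 and 41.2 TPM in control retina, while no Pfkfb1 library exceeded 7.8 TPM. Falls were seen for Hkdc1 (−3.01, SE 0.26), a hexokinase-like protein, and for Pfkfb3 (−0.84, SE 0.14). Hkdc1 had 0, 5 and 4 scaled counts in control rod TRAP and 83, 133 and 137 in control retina. It passed the filter on low values through the retina libraries alone, so its call is no open test of direction. Its size depended on the scale, from −3.39 to −1.70 under the alternatives that kept all libraries. Hkdc1 was at 0.0 to 0.2 TPM in control rod TRAP, beside the 1486 of Hk1 and the 380 of Hk2. In Abca4Ko 2 genes were higher and 3 lower, beside 30.4% and 33.7% of all genes. Under the authors' scaling alone Tigar was not called in control (0.13).

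Of 10 genes of lower glycolysis, 0 were called between genotypes in rod TRAP and 0 in retina, beside 1.09% and 0.106% of all genes. Their medians were −0.04 and −0.23. In control rod TRAP 6 were called higher and 3 lower than in retina, beside 36.6% and 38.8% of all genes, and in Abca4Ko 5 and 3, beside 30.4% and 33.7%. The 3 largest rises were of Pkm (pyruvate kinase, 0.90, SE 0.12), Ldha (the lactate dehydrogenase subunit that favours lactate, 0.82, SE 0.13) and Pgk1 (phosphoglycerate kinase, 0.64, SE 0.12). The 3 largest falls were of Eno2 (neuronal enolase, −1.13, SE 0.12), Ldhb (the subunit that favours pyruvate, −1.04, SE 0.14) and Eno3 (muscle enolase, −0.64, SE 0.18). Under the authors' scaling alone Ldha (0.18) was not called and Pgk1 turned to −0.0029. In rod TRAP Pkm had 4377, 3448 and 3852 TPM in Abca4Ko and 4683, 4601 and 4366 TPM in control, which overlapped (log2 fold change −0.18, SE 0.14, limma adjusted p = 0.719). Like Gpi1 and Aldoa, Pkm was called lower without Abca4Ko rod TRAP replicate 1 (−0.37, limma adjusted p = 0.000371).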

How the data were processed

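RNA was measured in 12 libraries of 4 groups, taken with their replicate numbers from the labels. Per the labels RNA was converted with a low-input kit and sheared, and 5 ng of cDNA went into each library. The submitters' processing notes name CASAVA 1.8.2, HISAT2, DESeq2, edgeR and GRCm39. The counter and the annotation are not given in the sources used here. The authors deposited a table of scaled counts, named a score here because each library had been multiplied to a common total and rounded, and a table of TPM to 1 decimal. The depth behind each library is therefore not the printed total. Since these are no raw counts, no count model was used. The test was limma 3.58.1 (trend, robust) in R 4.3.3, as planned for such a score.

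Trimmed mean of M values factors were computed over all entries, and values were expressed as log2(CPM + 0.5). Genes with at least 10 scaled counts in at least 3 libraries of a fit were tested, two-sided, with Benjamini-Hochberg adjustment over all of them and a threshold of 0.05. On this scale the fold change of a gene close to 0 comes out too small. Each genotype or fraction comparison used its own 6 libraries, the interaction all 12. Isoform ratios used log2(TPM + 1) and exact permutation tests (Python 3.11.15, numpy 2.4.6). Scripts were tested on simulated data. Aldoa has 2 entries in the scaled count table, and the more abundant 1 was used. How reads shared by isozymes or pseudogenes were assigned is not stated, which matters for Aldoa, Tpi1 and Gpi1.

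Deviations from the group means correlated between same-numbered libraries of the fractions in all 6 pairs (r = 0.16 to 0.43, across genes). In control each rod TRAP library correlated most with the same-numbered retina library, so the numbers may pair the fractions there. Unlike numbers correlated negatively in control. Deviations from a group mean sum to 0, so negative values balance the positive ones and are no further evidence of pairing. In Abca4Ko pairing by number is less clear, since rod TRAP replicate 2 correlated more with retina replicate 3 (r = 0.23) than with retina replicate 2 (r = 0.21). That the number marks an animal is not stated. Promoters came from RefSeq (GRCm38.p6), another build than the authors', so no gene positions are given beyond the windows shown. Members and lists were chosen with earlier results of these data known. The named genes are all members, Abca4, Pkm, the genes of both lists called between genotypes or for the interaction, and the 3 largest called rises and falls of each list in the control comparison of fractions, of which 1 is not reported here. Alternatives were the authors' scaling alone, no filter, a pseudocount of 2, log2(TPM + 1), no trend or robust option, a replicate block, all 12 libraries in 1 fit, and each library left out. Rescaling from the tested genes alone was added after seeing the data.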

Additional observations from a re-analysis of the deposited data

How the results depend on the processing

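Counts of members called moved by more than 1.5 times only when a library was left out. They ran from 0 to 2 for the genotypes in rod TRAP and from 5 to 8 for the fractions in control, where the lowest count was without control rod TRAP replicate 2, and from 4 to 6 for the fractions in Abca4Ko. In retina and for the interaction they stayed at 0 under every alternative. With a replicate block no member call changed. All genes called between genotypes in retina rose from 18 to 46 with that block, 38 on the log2(TPM + 1) scale, 33 without the filter and 62 with all 12 libraries in 1 fit, and in rod TRAP they fell from 143 to 58 on the log2(TPM + 1) scale. Same-numbered libraries of the 2 genotypes did not deviate together (r from −0.39 to 0.01), so the block there pairs only numbers. For the isoform ratios between fractions, the replicate block (sign flips within 6 pairs) gave an exact p = 0.0312, the smallest possible, for the 4 that passed, and 0.125 for Pfkp to Pfkl.

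Within 1 genotype the differences of ratios between fractions could not pass (adjusted p = 0.125 at best). In control and Abca4Ko they were 0.70 and 0.49 for Hk2 to Hk1, 2.46 and 2.52 for Pfkl to Pfkm, 2.64 and 2.59 for Pfkp to Pfkm, and −0.68 and −0.73 for Aldoc to Aldoa. With scaled counts Pfkp to Pfkl turned to −0.019 between fractions, and Pfkl to Pfkm to −0.023 between genotypes in rod TRAP. With 1 library left out, genotype differences of ratios ran from −0.039 to 0.20 for Pfkl to Pfkm, −0.0058 to 0.19 for Pfkp to Pfkl and −0.018 to 0.22 for Aldoc to Aldoa in rod TRAP, and from −0.27 to 0.17 for Pfkl to Pfkm and −0.083 to 0.44 for Pfkp to Pfkm in retina.

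For rod TRAP against retina, the authors' scaling alone turned Gpi1 to −0.49 in control and −0.39 in Abca4Ko, Aldoa to −0.29 and −0.15, and Pgk1 to −0.0029 in control, and log2(TPM + 1) turned Gpi1 to −0.21 and −0.14. With 1 library left out, Gpi1 in Abca4Ko ran from −0.020 to 0.25. Between genotypes, Hk1 ran from −0.043 to 0.11 and Pfkp from −0.23 to 0.11 in rod TRAP, and Hk1 from −0.28 to 0.073 and Hk2 from −0.038 to 0.45 in retina. Interaction values near 0 also turned with 1 library, or both libraries of 1 number, left out: Hk1 ran from −0.058 to 0.28, Hk2 from −0.26 to 0.20, Gpi1 from −0.086 to 0.20, Pfkm from −0.062 to 0.37, Pfkp from −0.14 to 0.15, Aldoa from −0.042 to 0.27, Aldoc from −0.0085 to 0.19 and Pkm from −0.016 to 0.29. Pfkp was also positive there with the authors' scaling (0.015), log2(TPM + 1) (0.016) and rescaling from the tested genes (0.0028). The cause was not tested. The read depth behind the scaled libraries is not given, and 3 libraries a group limit the precision.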
